A study of Homo sapiens with 18 samples.

Results

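The genes described here are 44 human genes of DNA replication and the G1/S step of the cell cycle, chosen by symbol and matched by Ensembl identifier to 1 line each of a table of 58395 genes. All 44 were among the 16794 genes that passed the filter on low counts. RNA was sequenced from BxPC-3, an established line of pancreatic ductal cancer cells, as 3 libraries in each of 6 groups. Cells received HGF at 80 ng/ml, MSP at 100 ng/ml or the phosphate-buffered saline vehicle, and RNA was taken at 1 h or 4 h. HGF binds the receptor MET, and MSP binds RON (encoded by MST1R), a receptor of the same family. All groups shared 1 cell line grown in RPMI medium with fetal bovine serum, and the labels do not say whether serum was present during treatment. Whether the triplicates were separate cultures is not in the labels, so every p-value here reflects the spread between libraries that may be technical replicates.

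Before DNA can be copied, the origin recognition complex, CDC6 and CDT1 load rings of the MCM2 to MCM7 helicase onto DNA during G1. At the start of S phase CDC45 and the GINS complex join the loaded helicase, DNA polymerase alpha with its primase lays down primers, and polymerases delta and epsilon extend them with the sliding clamp PCNA. E2F transcription factors, held back by the retinoblastoma protein in early G1, drive many of these genes, and cancer cells commonly enter S phase with this brake weakened. In bulk RNA, fewer cells in a cell cycle phase and less RNA per cell cannot be told apart.

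Library totals lay between 30556613 and 48477215 counts, and the coefficient of variation between libraries was 5.23% in the fit. The 8 markers of ductal epithelium were all detected, with a summed level of 7280 to 7830 counts scaled to library size (CPM) after HGF at 4 h, against 5740 to 5970 CPM in vehicle at 4 h. They did not move together: on average KRT7, KRT8, KRT18 and CDH1 were higher after HGF at 4 h than in vehicle, and KRT19, CLDN4, MUC1 and EPCAM lower. The fibroblast list reached at most 18.6 CPM and the leukocyte list 1.86 CPM in any library, and KDR, of the 4 endothelial markers, had no count in any library. The endothelial list summed to 2.84 to 3.35 CPM after HGF at 4 h, 5.85 to 7.26 CPM after MSP and 7.26 to 7.85 CPM in vehicle. Of that list, VWF averaged 1.45 CPM after HGF at 4 h and 5.31 CPM in vehicle. HGF at 4 h also changed the make-up of the libraries. Mitochondrial genes took 6.11 to 6.22% of counts after HGF at 4 h, 8.36 to 8.42% after MSP and 8.73 to 8.98% in vehicle. The TMM scaling factors were 0.841 to 0.86 after HGF at 4 h, against 1.036 to 1.039 in vehicle. Their part in the results below was not tested, and counts of genes use these factors, with those from library totals beside the counts over all 44 genes and over the lists.

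Per transcript length, PCNA was the most abundant of the 44 in vehicle cells at 4 h, at 565 ± 34.1 on the length-scaled TPM scale (SD, n = 3), followed by MCM7 at 175 ± 7.56 TPM. MCM3, RRM1, MCM4 and MCM2 followed at 106 ± 7.92, 100 ± 5.65, 98.7 ± 6.69 and 98.1 ± 8.72 TPM, which is within the spread of one another. Apart from FEN1 and RRM2, which had few counts (below), the low end held BRCA2 at 8.1 ± 0.506 TPM, E2F2 at 9.05 ± 0.76 TPM, CHAF1B at 9.51 ± 0.435 TPM and E2F8 at 9.94 ± 0.531 TPM. Of these, E2F2, CHAF1B and E2F8 lay within 1 SD of their neighbours. After HGF at 4 h PCNA (311 ± 6.57 TPM) and MCM7 (128 ± 5.21 TPM) still led, and SLBP at 109 ± 2.76 TPM lay above MCM4 (62.7 ± 1.92 TPM), RRM1 (59.6 ± 4.02 TPM), MCM3 (51 ± 3.56 TPM) and MCM2 (31 ± 1.03 TPM). FEN1, the nuclease that trims the flaps of Okazaki fragments, and RRM2, the small subunit of ribonucleotide reductase, had only 1 to 23 and 2 to 18 counts per library. No comparison of these 2 genes was informative at that depth. Exons of other genes cover 8.7% of FEN1's and 20.2% of RRM2's exonic length in GENCODE 29, and whether read assignment set their counts was not tested.

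The first comparison asks what HGF did to these genes after 4 h. Most of them fell. By the quasi-likelihood test of edgeR, at a Benjamini-Hochberg adjusted p under 0.05, 36 of the 44 were lower after HGF than in vehicle and 1, SLBP, was higher, where 34.8% of all genes tested were lower and 33.1% higher. The median log2 fold change of the 44 was -0.60, against -0.06 over all genes tested. At least a 2-fold fall was seen in 14 of the 44, against 12.7% of all genes. The deepest falls were in 2 E2F factors, the primase PRIM1 and the ubiquitin ligase subunit DTL, and the next in the origin subunit ORC1 and the helicase subunit MCM2.

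Every HGF library lay below every vehicle library in 37 of the 44, which holds for 36.3% of all genes tested, and above in SLBP, which holds for 34.5%. When libraries were scaled by their totals alone, 41 of the 44 were lower and 1 higher, against backgrounds of 52% and 21.2%, and the medians were -0.89 for the 44 and -0.35 for all genes. The 44 together took 0.12 to 0.124% of all counts after HGF at 4 h and 0.218 to 0.242% in vehicle.

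**Figure D1:**
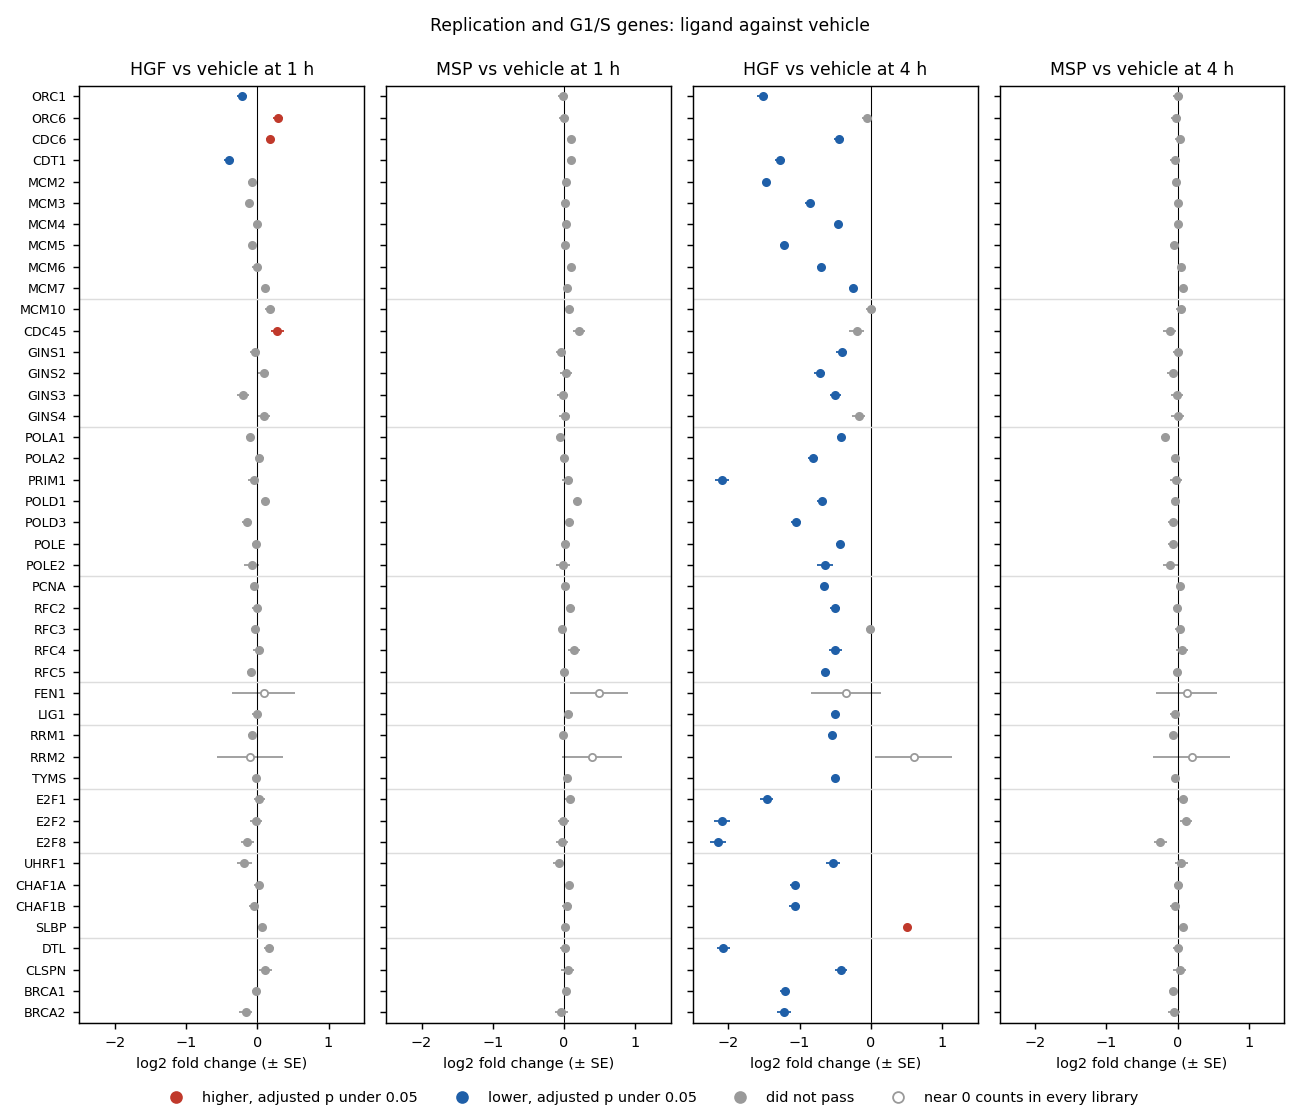
Log2 fold change against vehicle (points) with its standard error (lines) for the 44 genes, in role order from helicase loading at the top to checkpoint and repair at the bottom, after HGF and MSP at 1 h and at 4 h. With HGF at 4 h, 36 points lie to the left as called lower and SLBP lies to the right, whereas no point was called in either MSP panel.

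The promoters of 6 of the genes named here are shown because E2F factors drive many genes of this kind from sites close to the start. Whether E2F factors had a part in the fall after HGF was not tested. Each sequence is from RefSeq (GRCh38.p14) and runs 5′ to 3′ on the gene's strand over 270 bases, ending 20 bases into the transcript. Capitals mark TTTGGCGC, TTTCCCGC, TTTGCCGC or TTTCGCGC, read on either strand. The first 3 hold such a match, the last 3 do not, and the last of all, SLBP, is the gene that rose. DTL lies at chr1:212035498-212035767, plus strand, E2F2 at chr1:23531214-23531483, minus strand and MCM2 at chr3:127598161-127598430, plus strand. PRIM1 lies at chr12:56752304-56752573, minus strand, ORC1 at chr1:52404404-52404673, minus strand and SLBP at chr4:1712300-1712569, minus strand. In the count table they are ENSG00000143476 (DTL), ENSG00000007968 (E2F2), ENSG00000073111 (MCM2), ENSG00000198056 (PRIM1), ENSG00000085840 (ORC1) and ENSG00000163950 (SLBP).
DTL: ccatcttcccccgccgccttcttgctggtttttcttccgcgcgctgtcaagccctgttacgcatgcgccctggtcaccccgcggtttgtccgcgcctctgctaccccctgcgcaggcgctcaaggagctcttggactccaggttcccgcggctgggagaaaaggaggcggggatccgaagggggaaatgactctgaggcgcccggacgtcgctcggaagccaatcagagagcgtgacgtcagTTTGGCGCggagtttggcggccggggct
E2F2: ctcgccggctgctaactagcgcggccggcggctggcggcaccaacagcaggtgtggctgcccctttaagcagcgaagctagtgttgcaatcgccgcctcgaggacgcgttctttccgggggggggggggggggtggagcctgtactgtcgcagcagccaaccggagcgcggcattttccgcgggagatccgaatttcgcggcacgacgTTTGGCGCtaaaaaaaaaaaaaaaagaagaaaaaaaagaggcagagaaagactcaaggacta
MCM2: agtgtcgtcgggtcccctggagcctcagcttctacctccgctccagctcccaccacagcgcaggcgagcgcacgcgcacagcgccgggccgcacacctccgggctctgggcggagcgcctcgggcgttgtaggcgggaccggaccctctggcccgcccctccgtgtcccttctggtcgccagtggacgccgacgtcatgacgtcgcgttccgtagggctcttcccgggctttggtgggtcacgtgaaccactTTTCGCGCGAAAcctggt
PRIM1: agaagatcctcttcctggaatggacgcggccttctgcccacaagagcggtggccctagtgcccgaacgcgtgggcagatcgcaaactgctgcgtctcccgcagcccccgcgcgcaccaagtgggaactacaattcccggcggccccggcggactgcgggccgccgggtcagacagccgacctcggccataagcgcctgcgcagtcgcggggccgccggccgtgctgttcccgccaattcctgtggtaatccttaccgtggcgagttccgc
ORC1: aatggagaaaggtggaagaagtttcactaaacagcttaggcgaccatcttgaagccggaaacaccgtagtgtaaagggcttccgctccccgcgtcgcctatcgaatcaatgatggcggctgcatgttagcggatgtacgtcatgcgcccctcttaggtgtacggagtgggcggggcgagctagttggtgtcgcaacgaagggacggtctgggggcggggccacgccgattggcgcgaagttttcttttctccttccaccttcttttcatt
SLBP: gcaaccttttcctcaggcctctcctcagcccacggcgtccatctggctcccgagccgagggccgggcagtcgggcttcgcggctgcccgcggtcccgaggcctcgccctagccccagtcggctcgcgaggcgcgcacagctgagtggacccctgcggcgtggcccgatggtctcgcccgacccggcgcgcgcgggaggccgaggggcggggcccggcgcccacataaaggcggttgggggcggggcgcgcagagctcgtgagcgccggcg

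In DTL the match began 8 bases before the annotated start and in E2F2 it began 42 bases before it. In MCM2 a pair of matches on opposite strands overlapped just after the start, and they are printed as 1 run. Windows of 250 bases before to 50 bases after the start were held for 39 of the 44 genes, and 22 of the 39 (56.4%) held at least 1 of these letters in any window, against 4.0% of 27305 genes with a window. A CCAAT box (CCAAT or ATTGG) was in 23 of the 39 (59.0%), against 39.7% of all genes, and TTTGAA or TTCGAA on either strand, the core of the element known as CHR, in 2 of the 39 (5.1%), against 19.5%. MCM5, POLD3, E2F8, MCM4 and GINS4 had no window here. Of the 22 genes with the E2F letters 21 were lower after HGF at 4 h, and of the 17 without them 11 were lower and 1 higher. The 17 include FEN1 and RRM2, which were not called and whose counts were too low to be informative, so these shares are not a fair contrast. The median log2 fold changes of the genes with and without the letters were close, at -0.58 and -0.55. Among the other tested genes with a window, 39.6% of the 702 that held the letters were lower and 35.7% of the 10719 that did not.

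The 3 E2F factors among the 44 fell after HGF at 4 h, unlike E2F3 to E2F6, described with their network further on. Of all genes tested 34.8% were lower. E2F8, an atypical repressor E2F, had 3.08, 2.72 and 2.12 CPM after HGF and 11.7, 12.2 and 11 CPM in vehicle. All CPM values for single genes are scaled by TMM factors. E2F2, an activator, had 2.74, 3.35 and 3.72 CPM after HGF and 15.1, 12.6 and 14.2 CPM in vehicle. In both genes every HGF library was far below every vehicle library. E2F8 fell by 2.15 on the log2 scale (SE 0.11, adjusted p = 4.81e-17) and E2F2 fell by 2.09 (SE 0.11, adjusted p = 2.78e-17, edgeR quasi-likelihood test). E2F1, the activator best known for binding the retinoblastoma protein, averaged 6.21 ± 0.127 CPM after HGF and 17.1 ± 1.54 CPM in vehicle (SD, n = 3 each), a log2 fold change of -1.46 (SE 0.09).

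Of the 10 genes that load the helicase, 9 were called lower, against 34.8% of all genes tested. ORC1, the largest subunit of the origin recognition complex, had 8.83, 8.49 and 7.73 CPM after HGF at 4 h and 25, 22 and 24.5 CPM in vehicle, and it fell by 1.52 (SE 0.08, adjusted p = 1.62e-16). ORC6, its smallest subunit, had 18.7, 18.9 and 17.3 CPM after HGF and 20.5, 19.2 and 17.7 CPM in vehicle. The groups overlapped for ORC6, whose log2 fold change was -0.06 (SE 0.07) and did not pass. CDT1, which brings the helicase to the origin, had 15.8, 18.9 and 15.4 CPM after HGF and 41.9, 38.3 and 41.3 CPM in vehicle, a log2 fold change of -1.28 (SE 0.07). Its partner CDC6 fell less, with a log2 fold change of -0.45 (SE 0.07).

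The 6 subunits of the helicase ring, which assemble in equal numbers, all fell but by unequal amounts, where 34.8% of all genes tested were lower. MCM2 had 48.4, 51.4 and 48 CPM after HGF at 4 h and 149, 123 and 136 CPM in vehicle, with no overlap between the groups, and it fell by 1.47 (SE 0.05, adjusted p = 1.02e-20). MCM7 had 172, 187 and 187 CPM after HGF and 229, 212 and 209 CPM in vehicle, again with separate groups, for a log2 fold change of -0.25 (SE 0.05). The log2 fold changes of the other subunits were -1.22 for MCM5, -0.86 for MCM3, -0.70 for MCM6 and -0.46 for MCM4. Exons on the opposite strand cover 23.6% of MCM2's exonic length and 8.9% of MCM7's, and the labels do not say whether reads were counted by strand.

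**Figure D2:**
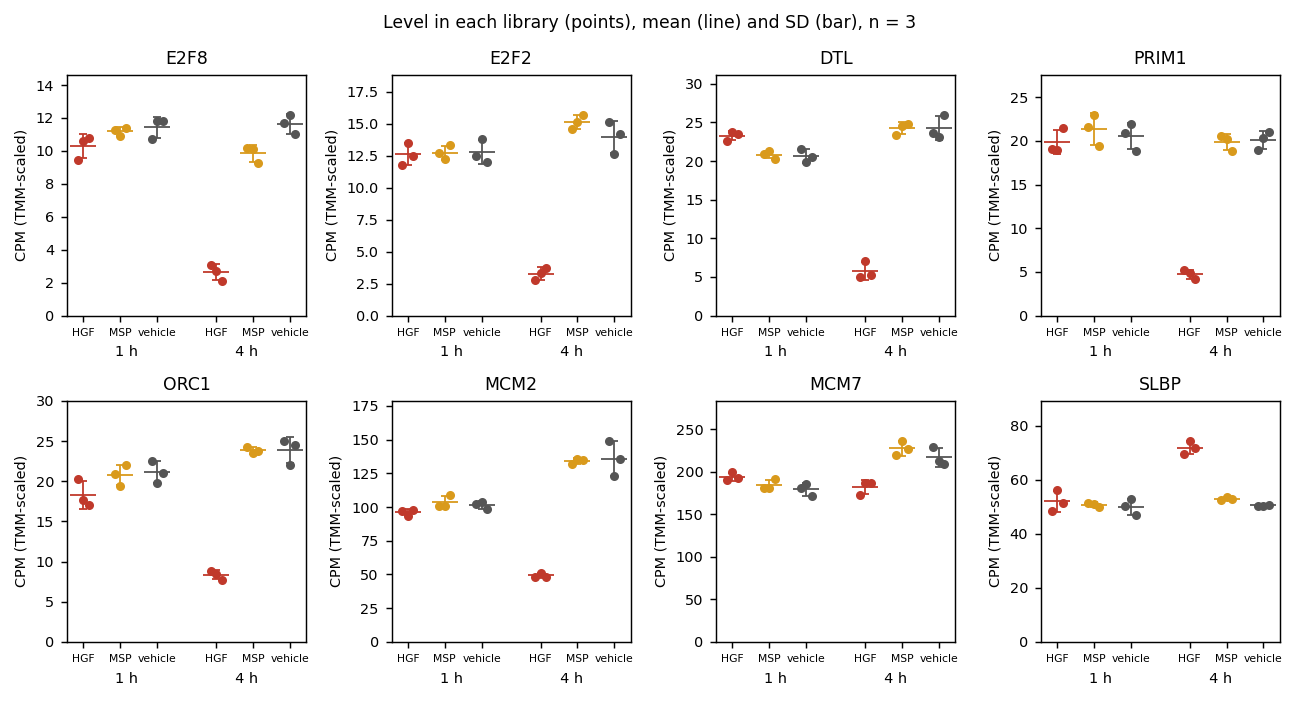
CPM scaled by TMM factors in each library (points), with the group mean (horizontal line) and SD (bar, n = 3), for 8 of the genes after HGF, MSP and vehicle at 1 h and at 4 h. The HGF points at 4 h lie below all others for E2F8, E2F2, DTL, PRIM1, ORC1 and MCM2 and above all others for SLBP.

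The genes that activate the loaded helicase moved less. Of the 6 in this role 3 were called lower, against 34.8% of all genes tested. These were subunits of GINS, with log2 fold changes of -0.72 for GINS2, -0.50 for GINS3 and -0.41 for GINS1. The fourth subunit, GINS4, had a log2 fold change of -0.17 (SE 0.09, adjusted p = 0.087, edgeR quasi-likelihood test) and did not pass. CDC45, the helicase cofactor, had 9.94, 11.3 and 11.2 CPM after HGF and 14.2, 11.9 and 11.4 CPM in vehicle. Its libraries just failed to overlap, and its log2 fold change of -0.20 (SE 0.10, adjusted p = 0.0642) did not pass. MCM10, which helps to fire the helicase, had 21.6, 20.3 and 18.8 CPM after HGF and 22.2, 19.3 and 18.9 CPM in vehicle, overlapping groups with a log2 fold change of 0.00 (SE 0.07). These 3 genes were lower when library totals were used, as all 6 in this role then were. That scaling called 52% of all genes tested lower.

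All 7 polymerase and primase subunits were called lower, against 34.8% of all genes tested. PRIM1, the catalytic subunit of primase, had 5.18, 4.84 and 4.18 CPM after HGF at 4 h and 19, 20.3 and 21 CPM in vehicle. It fell by 2.09 (SE 0.10, adjusted p = 1.91e-18, edgeR quasi-likelihood test), with every HGF library far below every vehicle library. PRIM1 shares 21.6% of its exonic length with other genes, NACA on the same strand among them. POLA1, the catalytic subunit of polymerase alpha to which primase binds, had 20, 21.4 and 21.9 CPM after HGF and 29, 27.8 and 27.8 CPM in vehicle, a log2 fold change of -0.42 (SE 0.06). POLD3, an accessory subunit of polymerase delta, had a log2 fold change of -1.05 (SE 0.07), and POLD1, its catalytic subunit, one of -0.69. The other log2 fold changes were -0.81 for POLA2, of which 35.1% of the exonic length is shared with another annotated gene, -0.64 for POLE2 and -0.43 for POLE, both of polymerase epsilon.

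Among the clamp and its loader 4 of 5 genes were called lower, against 34.8% of all genes tested. PCNA had 145, 148 and 152 CPM after HGF at 4 h and 252, 221 and 231 CPM in vehicle, a log2 fold change of -0.66 (SE 0.04). The loader subunits RFC5, RFC2 and RFC4 had log2 fold changes of -0.64, -0.50 and -0.50. RFC3, of the same loader, had 45.1, 48.2 and 50 CPM after HGF and 51.5, 45.2 and 47.4 CPM in vehicle, and these groups overlapped (log2 fold change -0.01, SE 0.06). LIG1, the ligase that seals Okazaki fragments, had a log2 fold change of -0.50 (SE 0.06). In nucleotide supply RRM1, the large subunit of ribonucleotide reductase, and TYMS, which makes thymidylate, had log2 fold changes of -0.55 and -0.51. Both were called lower, although 46.6% of TYMS's exonic length lies opposite other genes, ENOSF1 among them.

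DTL, which directs the destruction of CDT1 and of the kinase inhibitor CDKN1A during S phase, had 4.99, 7.11 and 5.29 CPM after HGF at 4 h and 23.6, 23.1 and 26 CPM in vehicle. It fell by 2.07 (SE 0.09, adjusted p = 4.4e-19, edgeR quasi-likelihood test), and the groups were far apart. The homologous recombination genes BRCA1 and BRCA2 had log2 fold changes of -1.21 (SE 0.06) and -1.22 (SE 0.10). CLSPN, the checkpoint mediator claspin, had one of -0.42 (SE 0.09). All 4 genes in this role were thus called lower, against 34.8% of all genes tested. CHAF1A and CHAF1B, subunits of the chromatin assembly factor that places histones behind the fork, each had a log2 fold change of -1.07. UHRF1, which recognises newly copied methylated DNA, had one of -0.53 (SE 0.10).

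SLBP, which binds the stem-loop of histone mRNAs made in S phase, was the single gene that rose. It had 69.5, 74.3 and 71.6 CPM after HGF at 4 h and 50.3, 50.3 and 50.8 CPM in vehicle, with every HGF library above every vehicle library. Its log2 fold change was 0.51 (SE 0.05, adjusted p = 4.43e-10) and 0.22 with library totals, where it still passed.

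Ratios of counts of 2 genes in the same library do not depend on library scaling, and 6 pairs were taken after their values had been seen. The ratio of MCM2 to MCM7 was 0.271 ± 0.0126 after HGF at 4 h, 0.592 ± 0.014 after MSP and 0.627 ± 0.0398 in vehicle (SD, n = 3 each). ORC1 to ORC6 stood at 0.456 ± 0.0147 after HGF, 1.26 ± 0.018 after MSP and 1.25 ± 0.122 in vehicle. PRIM1 to POLA1 was 0.225 ± 0.0342 after HGF, 0.793 ± 0.0768 after MSP and 0.713 ± 0.0529 in vehicle. The counts of the named subunits therefore changed unequally whatever the scaling, and protein was not measured. E2F2 to E2F1 was 0.528 ± 0.0843 after HGF and 0.816 ± 0.0399 in vehicle, CDC45 to GINS2 was 0.882 ± 0.136 after HGF and 0.612 ± 0.0201 in vehicle, and SLBP to PCNA was 0.484 ± 0.0158 after HGF and 0.215 ± 0.0143 in vehicle. In every pair the HGF and vehicle libraries did not overlap, and the exact 2-sided permutation p of 0.1 is the smallest that 3 against 3 libraries allow. Since the pairs were chosen on these values, neither the separation nor this p is independent support.

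**Figure D3:**
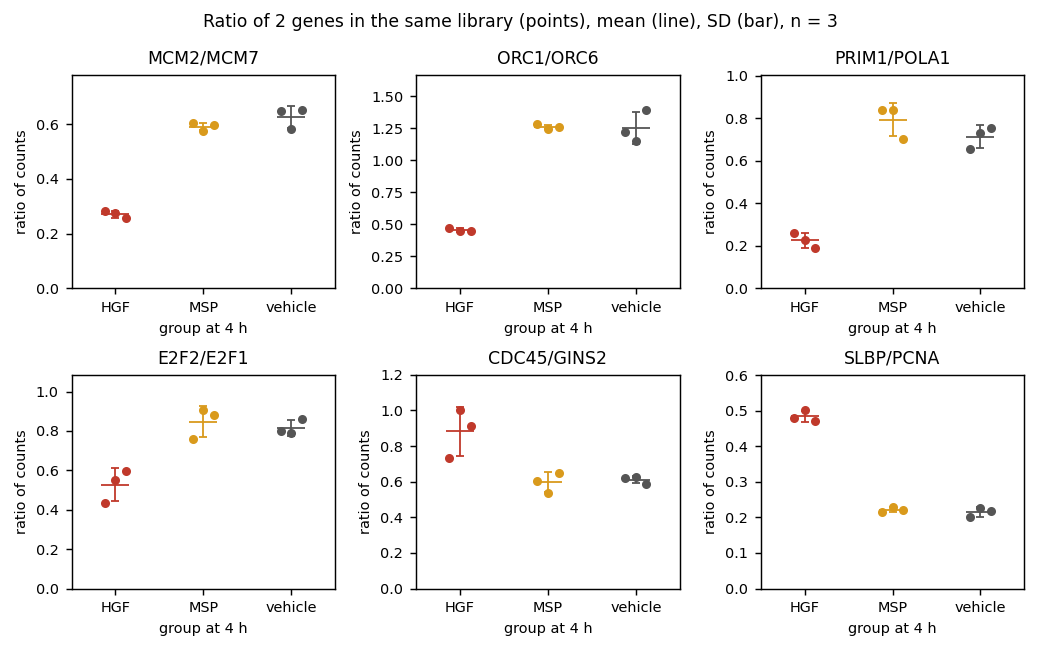
Ratio of the counts of 2 genes within each library (points) at 4 h after HGF, MSP and vehicle, with the mean (horizontal line) and SD (bar, n = 3). The MCM2/MCM7 ratio is 0.257 to 0.282 after HGF and 0.582 to 0.652 in vehicle. HGF stands apart from the other groups in all 6 panels, whose pairs were chosen after their values had been seen.

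The response to HGF at 1 h was small. In this comparison 3 of the 44 were higher, ORC6, CDC45 and CDC6, and 2 were lower, CDT1 and ORC1, where 13.8% of all genes tested were higher and 7.16% lower. CDT1 had 28, 27.3 and 27.7 CPM after HGF at 1 h and 37.6, 36.2 and 35.4 CPM in vehicle. It was clearly separate and fell by 0.40 (SE 0.07, adjusted p = 2.62e-05, edgeR quasi-likelihood test). ORC6 had 18.8, 21.9 and 20.2 CPM after HGF and 15.7, 16.7 and 17.3 CPM in vehicle, above in every library, with a log2 fold change of 0.29 (SE 0.07, adjusted p = 0.00252). CDC45 had 13.9, 14 and 11.7 CPM after HGF and 10.4, 10.4 and 11.7 CPM in vehicle, groups that almost touched, with a log2 fold change of 0.28 (SE 0.09, adjusted p = 0.0318). The libraries overlapped for CDC6, at a log2 fold change of 0.18, and for ORC1, at -0.21.

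The median log2 fold change of the 44 at 1 h was -0.02, against 0 for all genes tested. With library totals 1 of the 44 was higher, ORC6, and 14 were lower, against backgrounds of 9.07% and 21.4%, and CDC45 (0.17, adjusted p = 0.168) and CDC6 (0.08, adjusted p = 0.353) no longer passed. CDC45 also lost its call without vehicle replicate 1 or 2 (adjusted p = 0.114 and 0.125) and without HGF replicate 1 or 2 (adjusted p = 0.127 and 0.144). The numbers of calls themselves depended on single libraries: 1 was higher without vehicle replicate 1 or without HGF replicate 2, and 1 was lower without either of these or without vehicle replicate 3.

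The change of the HGF response between the times was tested directly. It was more negative at 4 h than at 1 h in 38 of the 44 and more positive in 1, where 26.4% and 26.8% of all genes tested changed in these directions. Library totals gave 40 and 1, against 6371 and 3117 of the 16794 genes tested. The genes that did not pass were MCM10, GINS4, RFC3, FEN1 and RRM2. The differences of log2 fold changes were -2.24 for DTL (SE 0.12, adjusted p = 2.23e-16), -2.07 for E2F2 (SE 0.14, adjusted p = 7.03e-14), -2.05 for PRIM1 (SE 0.12, adjusted p = 7.81e-15) and -2.00 for E2F8 (SE 0.14, adjusted p = 3.99e-13). SLBP was the gene in the other direction, at 0.45 (SE 0.07, adjusted p = 4.57e-06). For ORC6 and CDC45, higher at 1 h and not called at 4 h, the differences were -0.36 (SE 0.10, adjusted p = 0.00405) and -0.48 (SE 0.13, adjusted p = 0.00329).

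After MSP no member passed at either time. At 1 h 0 of the 44 were higher and 0 lower by edgeR, where 0.78% of all genes were higher and 0.0536% lower; 2 members had an unadjusted p under 0.05, and DESeq2 also called 0. Library totals also gave 0 and 0 at both times. At 4 h 0 were higher and 0 lower, against 0.774% and 0.292% of all genes, again with 2 members under an unadjusted p of 0.05 and 0 by DESeq2. Apart from FEN1 and RRM2, the log2 fold changes lay between -0.07 and 0.21 at 1 h and between -0.24 and 0.12 at 4 h. Their 95% intervals reached no lower than -0.27 and no higher than 0.40 at 1 h, and -0.42 and 0.29 at 4 h. E2F8 had 10.2, 10.1 and 9.25 CPM after MSP at 4 h and 11.7, 12.2 and 11 CPM in vehicle, below in every library, yet its log2 fold change of -0.24 did not pass (adjusted p = 0.23, edgeR quasi-likelihood test).

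HGF and MSP share their vehicle libraries, so the ligands were also compared directly. At 4 h 36 of the 44 were lower after HGF than after MSP and 1 was higher, against 33.8% and 32.7% of all genes tested. With library totals 41 were lower and 1 higher, against 8975 and 3320 of the 16794 genes tested. E2F2 had 2.74, 3.35 and 3.72 CPM after HGF and 14.6, 15.1 and 15.7 CPM after MSP, and was lower by a log2 fold change of -2.20 (SE 0.10, adjusted p = 6.3e-18). PRIM1, DTL and E2F8 followed with -2.07, -2.07 and -1.91, each with every HGF library below every MSP library. SLBP was higher by 0.44 (SE 0.05, adjusted p = 8.04e-09). At 1 h ORC6 was higher after HGF (0.29, SE 0.07, adjusted p = 0.00275), and CDT1 (-0.49, SE 0.07, adjusted p = 8.88e-07) and POLD3 (-0.21, SE 0.07, adjusted p = 0.0286) were lower, against backgrounds of 11.4% higher and 6.36% lower. The POLD3 call was lost without HGF replicate 1 or 2 or MSP replicate 2 (adjusted p = 0.131, 0.0626 and 0.108). With library totals 1 of the 44 was higher and 18 were lower at 1 h. The first stands against 1296 of the 16794 genes tested and the second against 18.5% of all genes.

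The vehicle cells themselves differed between the times. At 4 h 15 of the 44 were higher than at 1 h and 3 lower, against 10.9% and 9.99% of all genes tested. With library totals these were 14 and 3, against 1472 and 2055 of the 16794 genes tested. All 6 subunits of the helicase ring were among the higher genes. MCM6 had 93.3, 77.6 and 81.2 CPM at 4 h and 59.1, 57.4 and 58.8 CPM at 1 h, with separate groups and a log2 fold change of 0.52 (SE 0.05, adjusted p = 6.67e-08, edgeR quasi-likelihood test). MCM2 followed with 0.42, GINS2 with 0.40, MCM3 with 0.35, MCM5 with 0.34, and MCM4 and MCM7 with 0.27 each. MCM10, E2F1, RFC2, DTL, POLA2, POLD1, ORC6 and PCNA made up the rest, ORC6 without a call when library totals were used (adjusted p = 0.0765). The lower genes were RFC3 (-0.22), BRCA1 (-0.21) and GINS1 (-0.21), in order of size. GINS1 lost its call without any single library of 1 h (adjusted p = 0.0739, 0.133 and 0.072) or without replicate 1 or 3 of 4 h (adjusted p = 0.144 and 0.128), and RFC3 without replicate 2 of 1 h or of 4 h (adjusted p = 0.0501 and 0.064). In the HGF libraries at 4 h, MCM6 stood at 50.2, 53.4 and 51.5 CPM, below the vehicle libraries of both times.

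Genes of the same pathways outside the 44 were counted in 6 lists of 128 genes, of which 126 were tested. After HGF at 4 h, of 19 other origin and helicase genes 7 were higher and 10 lower (5 and 11 with library totals). Of all genes tested 33.1% were higher and 34.8% lower (21.2% and 52% with library totals), and list counts near these shares do not set a list apart. CDC7, the kinase that triggers the helicase, had 7.58, 8.52 and 7.77 CPM after HGF and 21.3, 19.9 and 19.2 CPM in vehicle, a log2 fold change of -1.34 (SE 0.08), whereas DBF4, its activating subunit, had 48.9, 51.3 and 49.6 CPM after HGF and 30.9, 33.8 and 32.4 CPM in vehicle, a log2 fold change of 0.63 (SE 0.07). The RNAs of the paired kinase subunits thus moved in opposite directions. GMNN, the inhibitor of CDT1, had a log2 fold change of -1.19, and MCMBP, which binds the MCM subunits, one of 0.75.

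Of 17 other polymerase, clamp and strand genes 5 were higher and 8 lower, where 33.1% of all genes were higher and 34.8% lower. Of 14 other nucleotide supply genes 4 were higher and 6 lower. With library totals these were 2 and 9 of the first list and 3 and 11 of the second. That scaling called 21.2% of all genes higher and 52% lower. TOP1, the topoisomerase that relieves supercoils, rose by a log2 fold change of 1.23 (SE 0.04), and RPA2, of the single-strand binding complex, fell by 0.78. CTPS1, which makes CTP, had 244, 241 and 243 CPM after HGF at 4 h and 58.5, 49.1 and 49.2 CPM in vehicle. Its log2 fold change was 2.22 (SE 0.06), and that of the purine synthesis enzyme GART was 0.94, in contrast to the falls of RRM1 and TYMS. SHMT1 and RRM2B fell by 0.71 and 0.67.

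Of 28 genes of the retinoblastoma and E2F network and the G1/S cyclins 15 were higher and 9 lower, or 11 and 13 with library totals. Over all genes these shares were 33.1% and 34.8%, or 21.2% and 52% with library totals. CDKN1A, an inhibitor of cyclin-dependent kinases, had 525, 492 and 450 CPM after HGF at 1 h and 107, 105 and 100 CPM in vehicle, with 347, 341 and 344 CPM after HGF at 4 h and 100, 106 and 98.4 CPM in vehicle. Every HGF library was thus above every vehicle library at both times, with log2 fold changes of 2.23 and 1.76. CDKN2C, an inhibitor of the G1 kinases, had 3.2, 4.21 and 3 CPM after HGF at 4 h and 19.6, 24.6 and 18.6 CPM in vehicle, a log2 fold change of -2.60 (SE 0.11). E2F5, a repressor E2F, had 8.22, 6.07 and 6.66 CPM after HGF at 4 h and 1.58, 1.78 and 1.36 CPM in vehicle, a log2 fold change of 2.15 (SE 0.16), opposite in direction to E2F1, E2F2 and E2F8. Chosen after their values were seen to complete the family, E2F4 (1.15, SE 0.05), E2F6 (0.96, SE 0.12) and E2F3 (0.90, SE 0.06) were also higher, under library totals too, and E2F7 did not pass (0.13, SE 0.07, adjusted p = 0.111), although library totals called it lower (-0.16, adjusted p = 0.0398). TFDP2, a partner of the E2Fs, fell by 1.58. At 1 h 8 of the 28 were higher and 2 lower (6 and 7 with library totals), MYC among the higher (0.99, SE 0.05), and CDKN1B (-1.39, SE 0.09) and FBXO5 (-0.58, SE 0.07) the lower. Over all genes at 1 h, 13.8% were higher and 7.16% lower (9.07% and 21.4% with library totals).

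Of 22 other replication-coupled chromatin and repair genes 5 were higher and 16 lower after HGF at 4 h, and of 26 genes of G2/M and mitosis 3 were higher and 22 lower. With library totals these were 1 and 17 of the first list and 0 and 24 of the second. Over all genes 33.1% were higher and 34.8% lower, or 21.2% and 52% with library totals. WEE1, the kinase that restrains mitosis, had 121, 125 and 117 CPM after HGF at 1 h and 64.2, 65.1 and 62.7 CPM in vehicle, with 25.5, 32.9 and 27.3 CPM after HGF at 4 h and 59.4, 55.9 and 53.9 CPM in vehicle. It was thus higher at 1 h (0.92, SE 0.06) and lower at 4 h (-0.98, SE 0.06). EXO1, a repair exonuclease, fell by 1.15, CDC25C, a phosphatase that promotes mitosis, by 1.91, and KIF20A, a kinesin of cell division, by 1.27. CDC20 (0.35) and UBE2C (0.29), among the higher G2/M genes, lost their calls with library totals (adjusted p = 0.15 and 0.994), as did the repair gene ATRIP (0.39, adjusted p = 0.341 with library totals).

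After HGF at 1 h the counts in the other lists depended on the scaling, and are given against 13.8% of all genes higher and 7.16% lower with TMM factors, or 9.07% and 21.4% with library totals. Of the 19 other origin and helicase genes 0 were higher and 2 lower with TMM factors, and 0 and 4 with library totals. Of the 17 polymerase, clamp and strand genes 2 were higher and 0 lower with TMM factors, and 1 and 4 with library totals. Of the 14 nucleotide supply genes these counts were 2 and 1 with TMM factors, and 1 and 6 with library totals. Of the 22 chromatin and repair genes, WEE1 among them, they were 2 and 1 with TMM factors, and 2 and 8 with library totals. Of the 26 G2/M genes they were 5 and 0 with TMM factors, and 2 and 8 with library totals. After MSP, 2 of the 28 network genes were higher at 1 h, where 0.78% of all genes tested were. At 4 h after MSP 1 of these 28 was lower and 1 of the 14 nucleotide supply genes higher, against 0.292% and 0.774% of all genes tested. No other gene of the lists passed after MSP by edgeR, and library totals gave the same counts.

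**Figure D4:**
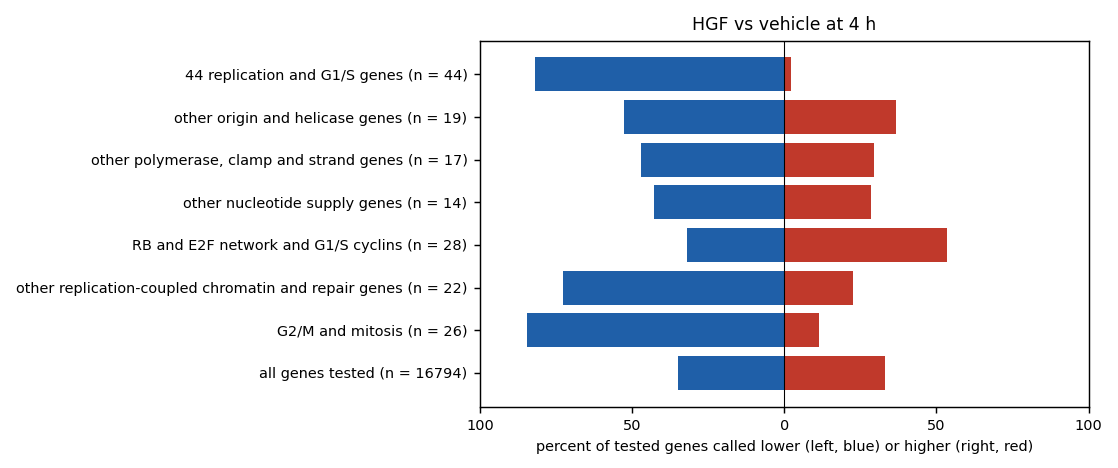
Percent of tested genes called lower (bars to the left) or higher (bars to the right) after HGF than in vehicle at 4 h, for the 44 genes, 6 lists of related genes and all genes tested. Of all genes 34.8% were lower and 33.1% higher, while 36 of the 44 were lower and 1 higher.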

How the data were processed

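RNA from 18 BxPC-3 samples was made into libraries with a KAPA mRNA HyperPrep kit, per the labels. The values used are the whole-number gene counts that the authors deposited, which come from STAR alignments and from featureCounts (Subread), per the submitters' processing notes. Genome build, annotation release and strand setting were not given in the sources used here. No line was without a gene name or identifier, and all 18 columns were used.

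Genes were kept by filterByExpr (minimum count 10, minimum total 15), leaving 16794. With TMM factors, edgeR 4.0.16 in R 4.3.3 fitted all 18 libraries together (robust glmQLFit, glmQLFTest, 1 mean for each group, residual df 12). Benjamini-Hochberg adjustment ran over the 16794 genes, and an adjusted p under 0.05 is a call; 8 comparisons were made. CPM values are scaled by TMM factors, and TPM values use exon lengths of GENCODE 29, from which overlaps and gene names were also taken.

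The 44 genes, the 6 lists and the lists of markers were chosen with earlier results of these data known. Genes named with tests were, for each ligand against vehicle, the 6 largest rises and 6 largest falls among called genes with separate libraries, and 4 of each for the other comparisons (without the condition on separate libraries for the change with time). From each list up to 2 rises and 2 falls were taken for HGF at each time. Others are described within their role.

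Libraries held 30556613 to 48477215 counts, and 3 counts in a library correspond to at most 0.0982 CPM of its total; such floors cover counting error only, while the 95% intervals of log2 fold changes come from the fit and include the spread between libraries. Alternatives were library totals, RLE factors, DESeq2 1.42.0, no filter, no robust estimation, fitting only the groups compared, a replicate block and leaving out each library. Same-numbered libraries deviated together only weakly, if at all (correlations of -0.05 to 0.09), and the numbers were not treated as pairs. In some comparisons all 3 libraries of the first group still correlated best with their own number, as given below.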

Additional observations from a re-analysis of the deposited data

Results flagged for a closer look

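For 5 of the 44 genes the test of the difference between the HGF response at 4 h and that at 1 h brought them to attention. These were the genes named for that comparison, and 38 of the 44 were more negative by the same test. The difference of log2 fold changes was -2.24 for DTL, -2.07 for E2F2, -2.05 for PRIM1 and -2.00 for E2F8, and it was 0.45 for SLBP. Library totals gave -2.43, -2.26, -2.23, -2.19 and 0.26 in the same order of genes, and each passed (edgeR quasi-likelihood test with Benjamini-Hochberg adjustment).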

How the results depend on the processing

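Of 220 counts of genes under the alternatives, 207 stayed within 1.5 times the reported count and 13 did not. The 207 include counts of 0 that stayed at 0, and a change of direction was not defined for counts. Of 940 values for single genes, 908 kept their direction and call, 32 lost the call and 0 reversed. These genes were picked for the largest called changes in the reported fit, so the figures do not describe the 44 genes or the lists as a whole. For HGF against vehicle at 1 h, the number of the 44 called higher (3) was 1 with library totals and 1 to 2 with a library left out, and the number called lower (2) was 14 with library totals, 4 without the filter, 5 with only the compared groups in the fit and 1 to 2 with a library left out. For HGF against MSP at 1 h, the number called lower (2) was 18 with library totals and 1 to 4 with a library left out (1 without HGF replicate 2, 4 without MSP replicate 2). For vehicle at 4 h against 1 h, the number called lower (3) was 1 to 2 with a library left out. The cause was not tested, other than that library totals lowered the median of all genes from 0 to -0.11 for HGF at 1 h.

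At 4 h the number lower after HGF than in vehicle was 36 to 37 with a library left out and 36 to 41 under the other settings. With a replicate block it was 36, and at 1 h the block gave 3 higher and 2 lower; for HGF against MSP at 1 h it gave 3 lower in place of 2, and it moved no count by more than 1.5 times. Replicate numbers were not treated as pairing, since same-numbered libraries correlated at -0.05 to 0.09; for HGF against vehicle at 1 h, MSP against vehicle at 1 h and vehicle over time, all 3 libraries of the first group correlated best with their own number, as a hint from the data. Depth limits FEN1 and RRM2, at no more than 23 counts in a library. The replicates of MSP at 1 h differed by up to 20.2 times the sampling variance, against at most 5.75 times in the other groups.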
